A study of Mus musculus with 33 samples.

Results

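Interferon-stimulated genes were followed through 4 gene expression experiments on mouse mammary cells and tumors in which the transcriptional repressor gene Trps1 was targeted or a deacetylase inhibitor was given. The list holds 41 genes chosen by symbol from textbook members of the response, in 5 role classes: 10 sensors of foreign RNA and their enzymes, 11 antiviral effectors, 4 genes of the ISG15 system, 5 interferon-inducible GTPases and 11 regulators and others. The choice was made with earlier results of these data known. All 41 had a row among the 22853 genes of the guide RNA table and among the 24186 genes of the organoid table. The Trichostatin A and tumor tables each had a row for 40 of the 41, among 26230 genes, and Irgm1 was not analysed here.

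The guide RNA experiment compared HC11 cells, an established mouse mammary epithelial line, that carried the guide sgTrps1 #1 (2 libraries) with HC11 cells that carried sgScr #1 (2 libraries). A second HC11 experiment compared 3 libraries treated with 300 nM Trichostatin A for 24 hours (TSA, an inhibitor of histone deacetylases) with 3 libraries given DMSO, the solvent. Primary mammary organoids with floxed alleles were transduced with AdCre, an adenovirus that delivers Cre recombinase, and harvested after 14 or 28 days. Their genotypes were Cdh1F/F;Trps1F/F, Cdh1+/F;Trps1F/F and Cdh1F/F;Trps1+/+, with 2 libraries for each genotype and day, and are written below without the semicolon, the last also as Trps1+/+. With no Cdh1+/F Trps1+/+ group here, Cdh1+/F Trps1F/F organoids differ from Cdh1F/F Trps1+/+ in both genes at once, and the effects of the 2 genes cannot be told apart in that comparison. All organoids received AdCre and carried at least 1 floxed Cdh1 allele. The tumors were 8 mammary tumors from 6 WAP-cre;Cdh1F/F;Trps1F/F mice and 3 from 3 WAP-cre;Cdh1F/F;Trps1+/+ mice. WAP-cre expresses Cre from a milk protein promoter, so recombination starts in secretory mammary epithelium, and Cdh1 was floxed in every tumor. The authors placed the Trps1F/F tumors in subgroups 1, 2 and 3, by a rule that the labels do not state. Each HC11 arm had 1 guide, so the guide and the cell population that carries it cannot be told apart. Nothing in the labels says that the HC11 or organoid libraries of a group came from separate cultures, and their p-values measure only the spread between these libraries.

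Cells that sense viral nucleic acid release interferons, which bind receptors on the same and neighbouring cells and activate the kinases Jak1 and Tyk2. Type I interferons act mainly through a complex that holds Stat2 and Irf9 and binds an interferon-stimulated response element (ISRE) in target promoters, and interferon gamma acts through a gamma-activated site (GAS). The target genes encode RNA sensors, proteins that block viral replication, the ubiquitin-like protein ISG15, and factors such as Irf7 that amplify the response or, like Usp18, restrain it.

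Promoter sequences (250 bases before to 50 after each start, RefSeq, GRCm38.p6) were found by symbol for 30 of the 41 genes. The core ISRE letters GAAANNGAAA were searched on both strands and stood in 14 of the 30 genes (46.7%), against 3.99% of the 27025 genes with an entry, counting a gene once when any of its promoters held a match. The core GAS letters TTCNNNGAA, also searched on both strands, stood in 7 of the 30 (23.3%), against 9.55% of all genes. A match describes the letters and says nothing of binding in these cells, and its absence says only that the letters are not in this window. The windows below show the first match, and any that reaches into its window, for 8 genes that the results turn on, 1 or more from each of 4 role classes, written 5′ to 3′ on the strand of the gene. Capitals mark bases of an ISRE match, and TTTC at both ends marks a match read on the opposite strand.

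Isg15, chr4:156200865-156200906, minus strand: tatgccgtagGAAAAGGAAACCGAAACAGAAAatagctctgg

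Ifit1, chr19:34640775-34640823, plus strand: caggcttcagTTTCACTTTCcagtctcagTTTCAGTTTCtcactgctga

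Oas3, chr5:120777715-120777744, minus strand: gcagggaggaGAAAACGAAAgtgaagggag

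Rsad2, chr12:26456553-26456582, minus strand: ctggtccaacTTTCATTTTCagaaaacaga

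Bst2, chr8:71537577-71537612, minus strand: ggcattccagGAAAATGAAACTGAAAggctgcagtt

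Igtp, chr11:58199512-58199541, plus strand: tctaggaactGAAACTGAAAgctgttcggg

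Gbp2, chr3:142620594-142620623, plus strand: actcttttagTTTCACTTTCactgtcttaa

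Ddx58, chr4:40239804-40239833, minus strand: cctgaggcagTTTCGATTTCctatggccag

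The whole 300-base windows of Isg15 and Ifit1 show how close together their matches lie, and that of Irf7 is given beside them because its level changed widely without the letters in this window. Isg15 held 3 overlapping matches that begin 78, 72 and 66 bases before the start. Ifit1 held 2, which begin 104 and 85 bases before it.

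Isg15, chr4:156200769-156201068, minus strand: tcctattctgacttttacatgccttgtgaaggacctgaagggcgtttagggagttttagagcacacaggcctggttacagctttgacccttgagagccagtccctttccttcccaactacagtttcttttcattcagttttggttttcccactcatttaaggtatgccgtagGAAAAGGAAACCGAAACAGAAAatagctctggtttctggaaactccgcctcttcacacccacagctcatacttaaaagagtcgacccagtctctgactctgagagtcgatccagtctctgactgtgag

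Ifit1, chr19:34640639-34640938, plus strand: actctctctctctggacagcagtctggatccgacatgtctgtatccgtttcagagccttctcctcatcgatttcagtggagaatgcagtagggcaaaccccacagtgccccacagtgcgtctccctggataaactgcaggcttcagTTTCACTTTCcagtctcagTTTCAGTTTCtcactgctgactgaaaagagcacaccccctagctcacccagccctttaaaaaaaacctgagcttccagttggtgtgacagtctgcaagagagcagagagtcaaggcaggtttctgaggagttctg

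Irf7, chr7:141266375-141266674, minus strand: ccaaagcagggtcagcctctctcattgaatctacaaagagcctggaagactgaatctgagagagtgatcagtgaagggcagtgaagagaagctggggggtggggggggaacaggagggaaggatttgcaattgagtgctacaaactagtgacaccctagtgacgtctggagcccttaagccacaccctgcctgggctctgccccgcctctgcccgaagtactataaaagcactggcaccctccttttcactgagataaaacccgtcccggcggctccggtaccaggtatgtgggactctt

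The deposited values were log2(normalized count + 1), and levels below are normalized counts recovered from them. Library totals ran from 21346514 to 38708003 reads in the guide table, 17788566 to 25585997 in the TSA table, 14833245 to 30305818 in the organoid table and 18304633 to 24192323 in the tumor table. At these depths 3 reads equal between 1.55 and 4.51 normalized counts. Trps1 itself fell in Cdh1F/F Trps1F/F organoids (-2.22 on the log2 scale at day 14 and -2.65 at day 28), in Cdh1+/F Trps1F/F organoids (-3.81 and -4.04) and in TSA-treated cells (-3.05), each at a limma adjusted p below 0.05. It did not pass the test in the libraries labelled sgTrps1 (log2 fold change 0.04, SE 0.079, adjusted p = 0.676), and directions below are those of libraries so labelled. An RNA level does not measure the edit that a guide makes.

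HC11 cells with sgTrps1 had higher levels of nearly every interferon-stimulated gene that could be tested. Of 37 genes above the filter on low values, 34 rose and 3 fell at a limma adjusted p below 0.05, against 34.6% of all 12552 genes that rose and 32.4% that fell. The median log2 fold change was 2.21 over the 37 genes and 0.02 over all genes tested, and fold changes are on the log2(normalized count + 1) scale, which understates those of low genes. In all 37 the sgTrps1 libraries lay on 1 side of the sgScr libraries with no overlap, 34 above and 3 below, as did 43.0% of all genes above and 40.5% below. All 11 effectors and all 7 tested sensors rose, as did 3 of 4 ISG15-system genes, 3 of 4 GTPases and 10 of 11 regulators and others. Oas1a, Oas2, Oas3, Oasl2, Ifit3, Mx1, Cmpk2, Ifi44, Irf7 and Sp100 passed the filter only through the sgTrps1 libraries. Ifit1, Mx2, Usp18 and Rtp4 had only 1 sgScr library above the filter value, so they too needed the sgTrps1 libraries to pass. Such genes could enter only by standing high there, so their rises in these counts and in the median are not separate support.

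Mx2, of the interferon-induced dynamin-like GTPases, had 494 and 649.8 normalized counts in the 2 sgTrps1 libraries and 11.1 and 2.76 in the 2 sgScr libraries (log2 fold change 6.39, SE 0.37, limma adjusted p = 4.88e-09). The mouse gene annotation lists Mx2 as a polymorphic pseudogene, so its RNA level says nothing of a working protein. Ifi44, an interferon-induced cytoplasmic protein, stood at 119 and 169.6 in sgTrps1 and 4.59 and 4.59 in sgScr (log2 fold change 4.68, SE 0.24, limma adjusted p = 1.28e-09). Ifit1, which binds viral RNA that lacks the host's cap marks, stood at 142 and 189 in sgTrps1 and 11.8 and 6.43 in sgScr (log2 fold change 4.08, SE 0.25, limma adjusted p = 9.24e-09). All 3 were low in sgScr cells, and both sgTrps1 libraries lay far above them. Bst2, the tetherin that holds budding virus at the cell surface, was already expressed in sgScr cells, with 327 and 373 normalized counts in sgTrps1 and 105 and 112 in sgScr (log2 fold change 1.68, SE 0.11, limma adjusted p = 1.27e-08). The other effectors that rose were Ifit3 (3.15), Rtp4 (2.93), Cmpk2 (2.60), Rsad2 (2.18), Samd9l (1.98) and Ifit2 (1.13), given as log2 fold changes. Mx1, the paralog of Mx2, had 140 reads over the sgTrps1 libraries and 2 over the sgScr libraries, a ratio of 47.8 (13.0 to 399) with its exact 95% interval for counting error.

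Oasl2, an oligoadenylate synthase-like protein, led the tested sensors, with 130.3 and 151 normalized counts in sgTrps1 and 7.21 and 8.27 in sgScr (log2 fold change 4.02, SE 0.20, limma adjusted p = 1.32e-09). Oas2, which makes the oligoadenylates that activate the ribonuclease RNase L, stood at 31.1 and 33.1 in sgTrps1 and 2.62 and 0.919 in sgScr (log2 fold change 3.65, SE 0.39, limma adjusted p = 2.00e-06). Its relatives Oas3 (3.91) and Oas1a (2.93) rose as well. Ddx58, the RNA helicase RIG-I, was well expressed in both arms, with 9181 and 9954 in sgTrps1 and 3519 and 3457 in sgScr (log2 fold change 1.45, SE 0.065, limma adjusted p = 3.71e-10). Eif2ak2, the kinase PKR that halts translation (1.60), and Dhx58, the helicase LGP2 (0.50), rose by less than the oligoadenylate synthases, and the Dhx58 call was lost without the first sgTrps1 library (adjusted p = 0.156). Ifih1, Oasl1 and Zbp1 were below the filter. Ifih1, the sensor MDA5, had 8.44 and 7.75 normalized counts in sgTrps1 and 1.97 and 0.919 in sgScr, and Zbp1, a sensor of Z-form nucleic acid, 4.22 and 11.4 in sgTrps1 and 1.31 and 1.84 in sgScr.

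Isg15, the ubiquitin-like modifier, had 252 and 311 normalized counts in sgTrps1 and 17.0 and 21.1 in sgScr (log2 fold change 3.81, SE 0.16, limma adjusted p = 2.76e-10). Usp18, the protease that removes ISG15 and blocks the type I receptor, had 473 and 555 in sgTrps1 and 14.4 and 8.27 in sgScr (log2 fold change 5.42, SE 0.20, limma adjusted p = 6.99e-11). Herc6, the mouse ligase that attaches ISG15, moved the other way, with 275 and 298 in sgTrps1 and 362 and 384 in sgScr (log2 fold change -0.38, SE 0.087, limma adjusted p = 0.00158). Trim25, which ubiquitinates RIG-I, rose by 0.28. So the modifier and its protease rose together while the ligase gene fell slightly.

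Igtp rose most of the 4 tested GTPases, with 139.8 and 166 normalized counts in sgTrps1 and 17.7 and 22.0 in sgScr (log2 fold change 2.89, SE 0.18, limma adjusted p = 8.90e-09), followed by Irgm1 (2.21) and Gbp3 (1.81); these proteins act on the vacuoles of intracellular pathogens. Iigp1, a GTPase of the same family as Igtp, was below the filter, with 37 reads over the sgTrps1 libraries and 1 over the sgScr libraries, a ratio of 25.3 (4.26 to 1024) with its counting interval. Gbp2, a guanylate-binding protein of the same function, fell, with 131 and 118 in sgTrps1 and 229.9 and 239 in sgScr (log2 fold change -0.91, SE 0.11, limma adjusted p = 5.68e-06). Irf7, the factor that drives interferon alpha genes, had 71.2 and 96.7 in sgTrps1 and 1.97 and 3.67 in sgScr (log2 fold change 4.50, SE 0.30, limma adjusted p = 2.24e-08). Parp12, a mono-ADP-ribosyltransferase, fell more than any other gene of the list, with 63.3 and 63.6 in sgTrps1 and 209 and 248 in sgScr (log2 fold change -1.83, SE 0.13, limma adjusted p = 3.01e-08). The partners Parp9 and Dtx3l, which form a ubiquitin ligase complex, rose by 0.85 and 0.60, and Adar, which edits adenosine in RNA, by 0.46. Xaf1 (3.21), which binds an inhibitor of apoptosis, and Ifi27 (2.65) rose strongly. Sp100, a protein of PML nuclear bodies, had 47 reads over the sgTrps1 libraries and 3 over the sgScr libraries, a ratio of 10.7 (3.44 to 53.7) with its counting interval.

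**Figure D1:**
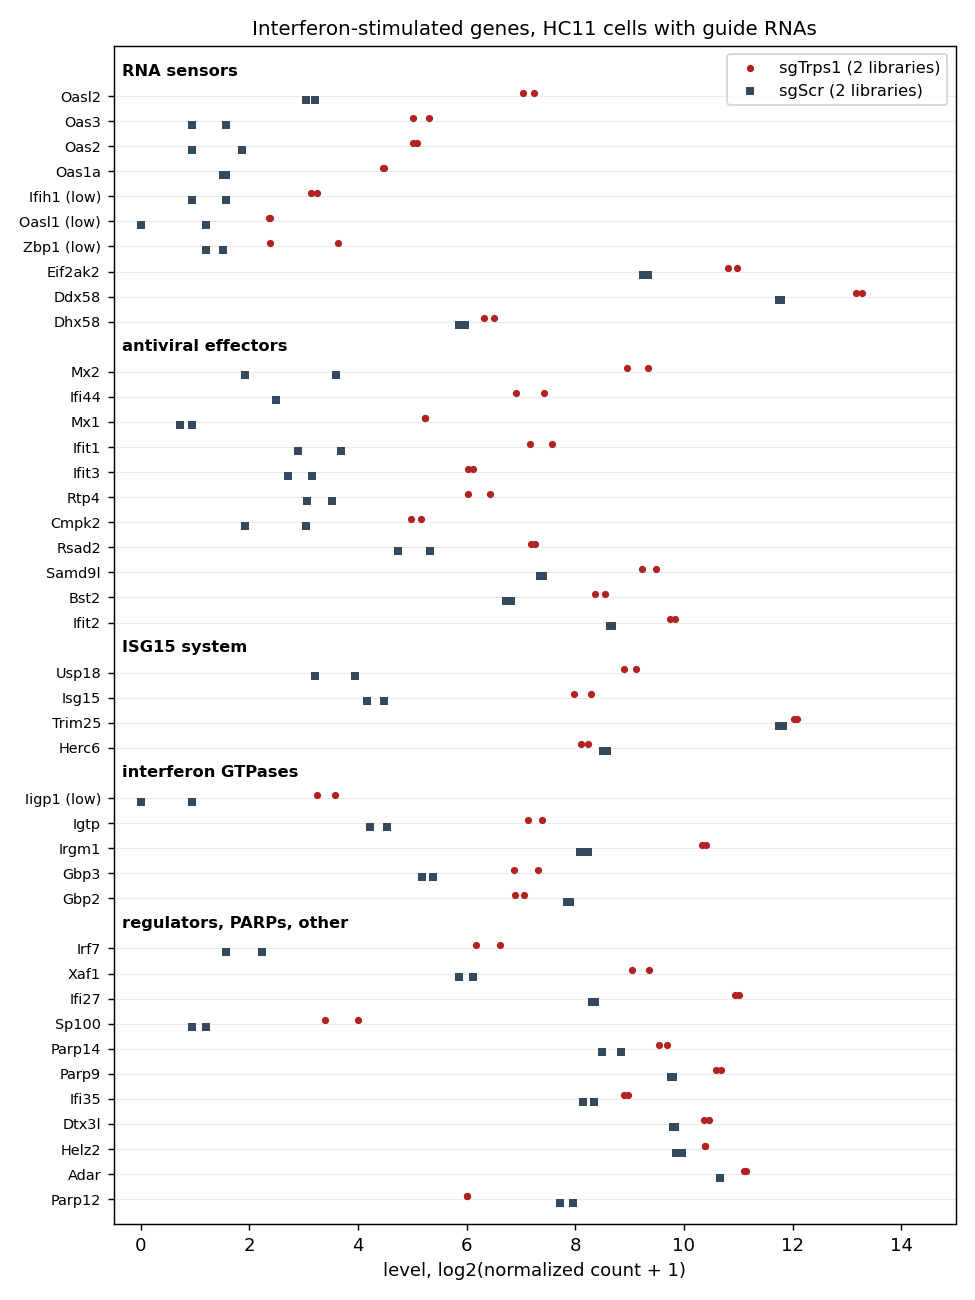
Levels of the 41 interferon-stimulated genes in the 2 sgTrps1 libraries and the 2 sgScr libraries of HC11 cells, as log2(normalized count + 1) on the horizontal axis, grouped by role, with each point 1 library. The sgTrps1 points lie to the right of the sgScr points for 34 of the 37 tested genes and to the left of them for Gbp2, Herc6 and Parp12.

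The receptors and transducers of the pathway moved in the same cells. Of 12 genes, all tested, 10 rose and 2 fell, against 34.6% of all genes that rose and 32.4% that fell. Irf9 (2.40), Stat2 (2.23) and the type I receptor chain Ifnar2 (2.07) were among those that rose. The kinase Tyk2 (-1.10) and the shared receptor chain Il10rb (-0.50) fell. Of 10 tested genes that induce interferon 3 rose and 1 fell, both below the shares of all genes and so not a result about this set. The fall was in the factor Irf5 (-3.47) and the largest rises in Ticam1 (0.88) and the kinase Tbk1 (0.54). Of 5 tested brakes 2 rose, Pias1 (0.25) and Socs3 (0.21). No interferon gene reached the filter. Ifnb1 had 11 reads over the 2 sgTrps1 libraries and 2 over the 2 sgScr libraries, and Ifnab had 10 reads in sgTrps1 and 0 in sgScr, which allows up to 3. The Trichostatin A and DMSO libraries share no sample with these.

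Macrophage and leukocyte markers were low in both arms. The summed level of 12 macrophage markers with a row was 137 to 138 normalized counts in sgTrps1 and at most 135 in sgScr, and the leukocyte gene Ptprc had 0 reads in all 4 libraries. The sum of the epithelial markers was 88120.1 to 88414 in sgTrps1 and 30776 to 34435 in sgScr. Its members were divided: of 9 tested 6 rose and 3 fell, against 34.6% and 32.4% of all genes. Krt5 (2.68) and Cldn4 (2.06) were among those that rose, and Epcam (-1.40) and Krt7 (-2.51) among those that fell. The sum of the fibroblast markers was 16446 to 17322 in sgTrps1 and 22532 to 22889 in sgScr, and 3 of 4 tested fell. The part of these differences in the result was not tested. The genes of chromosomes 10 and 16 as a whole stood higher in sgTrps1, with median log2 fold changes of 0.42 and 0.32. Mx1, Mx2, Rtp4, Parp9, Dtx3l and Parp14 lie on chromosome 16 and none of the list on chromosome 10, and away from both chromosomes 28 of 31 tested genes of the list rose and 3 fell. In the authors' deposited values, from a table whose fold changes run as sgScr over sgTrps1, 34 of the 41 genes were higher in sgTrps1 and 3 lower at an adjusted p below 0.05, against 46.5% of all genes of that table in either direction.

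In Trichostatin A-treated HC11 cells the list split. Of 29 genes above the filter 13 rose and 11 fell, against 43.6% of all 13035 genes that rose and 41.6% that fell, and the median log2 fold change was 0.03 over the 29 genes and 0.02 over all genes. Both shares are near those of all genes, so the counts are not a result about the list. Rsad2, Cmpk2, Usp18, Irf7 and Oasl1 passed the filter only through the TSA libraries, and Ifit3 and Rtp4 only through the DMSO libraries. The filter set the direction of such genes, so they are not separate support for these counts or the split by role. The 13 that rose lay above DMSO in every library (44.0% of all genes) and the 11 that fell lay below it (42.2%), and the other 5 overlapped. All 3 tested GTPases rose, while the effectors went 3 up and 4 down and the regulators and others 3 up and 6 down.

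Rsad2, viperin, which makes a nucleotide that ends viral RNA chains, had 802, 815 and 862 normalized counts in the 3 TSA libraries and 4.09, 2.24 and 3.13 in the 3 DMSO libraries (log2 fold change 7.66, SE 0.18, limma adjusted p = 5.08e-12). Its neighbour on chromosome 12, the nucleotide kinase gene Cmpk2, had 80.7, 80.7 and 79.1 in TSA and 6.14, 1.12 and 4.17 in DMSO (log2 fold change 4.25, SE 0.38, limma adjusted p = 5.50e-07). Bst2 had 554, 554 and 619 in TSA and 55.2, 63.8 and 73.0 in DMSO (log2 fold change 3.16, SE 0.11, limma adjusted p = 1.43e-10). These 3 were the only tested effectors that rose. The other 4 tested effectors fell: Rtp4, a receptor transporter induced by interferon, had 3 reads over the TSA libraries and 33 over the DMSO libraries, higher in DMSO by a ratio of 12.6 (3.97 to 64.4) with its counting interval. Ifit3, which stabilizes Ifit1 complexes, fell to 2.18, 3.77 and 1.98 in TSA, against 18.4, 20.1 and 15.6 in DMSO (log2 fold change -2.41, SE 0.32, limma adjusted p = 1.98e-05). Ifit2, which promotes apoptosis, had 291, 300.2 and 263 in TSA and 1019.9, 951 and 935 in DMSO (log2 fold change -1.76, SE 0.068, limma adjusted p = 2.55e-10). Samd9l, an antiviral and growth-restraining factor, fell by 2.09 on the log2 scale. Ifit1 was below the filter, with 3.27, 0.754 and 1.98 in TSA and 16.4, 8.95 and 7.30 in DMSO, so the Ifit values all stood lower in TSA, on the side opposite to Rsad2 and Cmpk2.

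Irf7 had 392, 395 and 412 normalized counts in TSA and 4.09, 8.95 and 3.13 in DMSO (log2 fold change 6.08, SE 0.28, limma adjusted p = 9.80e-10). Usp18 had 139, 151 and 163 in TSA and 5.12, 8.95 and 0 in DMSO (log2 fold change 5.27, SE 0.64, limma adjusted p = 8.33e-06). Isg15 had 253, 287 and 285 in TSA and 27.6, 43.6 and 33.4 in DMSO (log2 fold change 2.97, SE 0.16, limma adjusted p = 5.88e-09). All 3 were low in DMSO and several times higher in every TSA library, while Herc6 (0.03) and Trim25 (-0.08) were not called. Gbp2, which fell with sgTrps1, rose with TSA, with 2959, 2757 and 3195 in TSA and 259.8, 286 and 259.5 in DMSO (log2 fold change 3.46, SE 0.064, limma adjusted p = 7.64e-13). Igtp (2.35) and Gbp3 (1.47) rose as well.

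Among the sensors Oasl1, which in mice limits translation of Irf7 RNA, rose to 19.6, 21.9 and 33.6 in TSA, against 3.07, 1.12 and 5.21 in DMSO (log2 fold change 2.75, SE 0.41, limma adjusted p = 4.92e-05). Ddx58 fell to 661, 711 and 641 in TSA, against 1386, 1282 and 1304 in DMSO (log2 fold change -0.98, SE 0.054, limma adjusted p = 6.15e-09). Eif2ak2 rose by 0.18, and Ifih1 (0.38) and Dhx58 (-0.04) were not called. Oas1a, Oas2, Oas3, Oasl2 and Zbp1 were below the filter, as were Mx1, Mx2, Ifi44, Iigp1 and Sp100: Oas2 had 4 reads over the TSA libraries and 1 over the DMSO libraries, a ratio of 3.48 (0.344 to 171) whose interval includes no difference. Of the effectors below the filter, Mx2 had 6.55, 15.1 and 8.89 normalized counts in TSA and 3.07, 3.36 and 2.08 in DMSO, with a log2 fold change of 1.87 and an adjusted p of 0.0413 in the authors' deposited table. Ifi44 had 14 reads over the TSA libraries and 2 over the DMSO libraries, a ratio of 6.09 (1.40 to 55.2) with its counting interval. Parp9 fell to 61.1, 86.0 and 71.2 in TSA, against 464, 493 and 457 in DMSO (log2 fold change -2.69, SE 0.12, limma adjusted p = 1.07e-09), and its partner Dtx3l fell by nearly the same amount (-2.63). The divergent starts of this gene pair lie close together. Xaf1 (-1.48), Parp12 (-1.14), Adar (-0.43) and Ifi35 (-0.19) fell, and Ifi27 (0.85) and Helz2 (0.62), a helicase that acts as a nuclear receptor coactivator, rose.

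**Figure D2:**
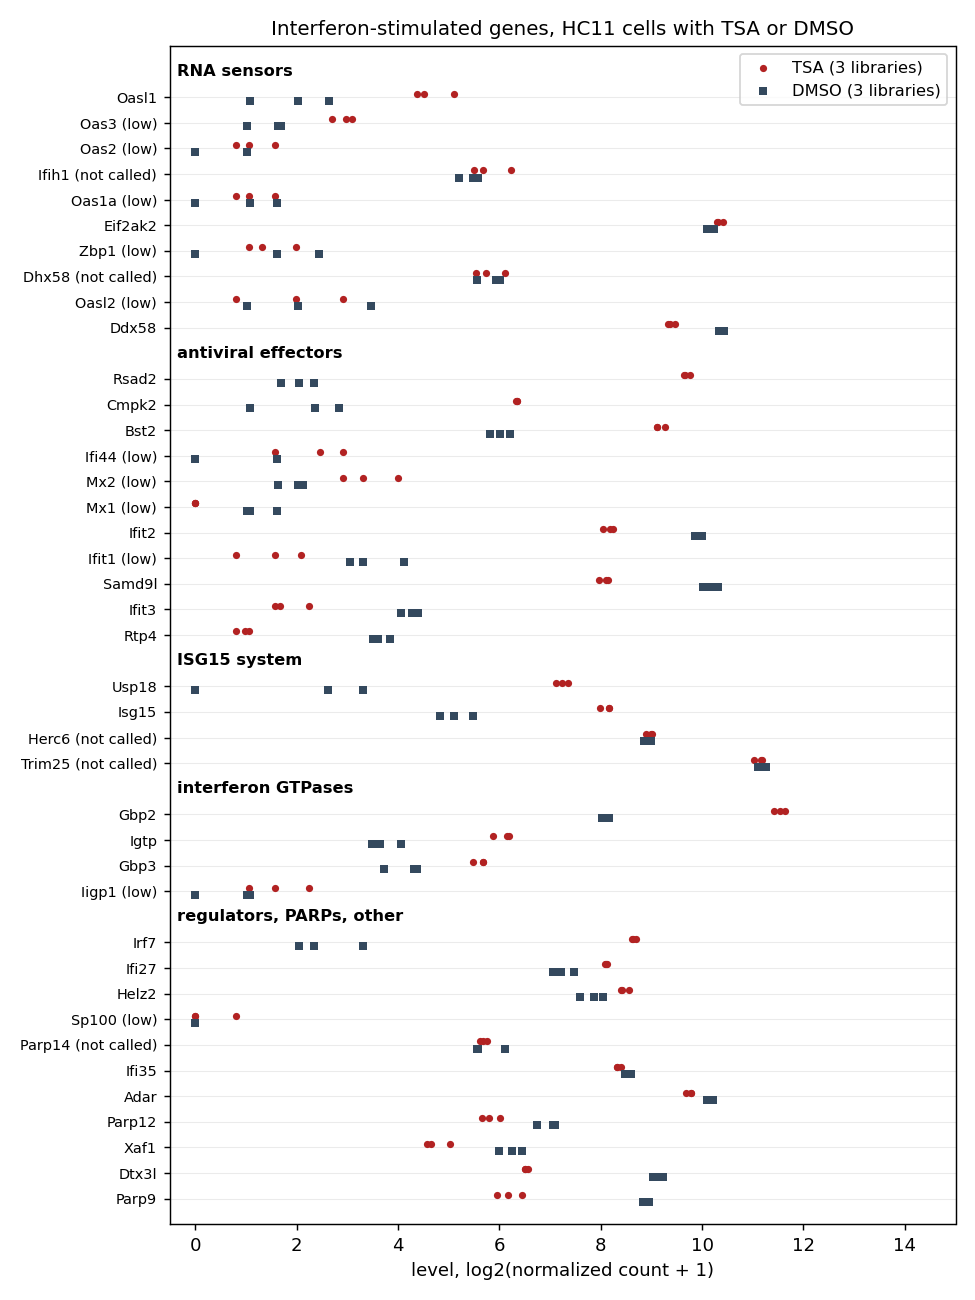
Levels of the 40 interferon-stimulated genes with a row in the 3 TSA libraries and the 3 DMSO libraries of HC11 cells, as log2(normalized count + 1) on the horizontal axis, grouped by role, with each point 1 library. Rsad2, Irf7 and Usp18 show the widest gaps with TSA on the right, and Rtp4, Parp9, Dtx3l and Ifit3 the widest with TSA on the left.

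Upstream genes were divided in the same way. Of 12 receptors and transducers 8 rose with TSA and 3 fell, against 43.6% and 41.6% of all genes. Stat2 (2.34), Tyk2 (1.77), Jak1 (0.89) and Ifngr2 (0.87), named by their p-values, rose. The 3 that fell were the receptor chains Il10rb (-1.14), Ifnar2 (-0.64) and Ifngr1 (-0.26). Of 10 tested genes that induce interferon 2 rose and 6 fell, among them the receptor of viral RNA Tlr3 (-1.55), the DNA sensor Ifi204 (-2.25), the adaptor Myd88 (-1.15) and, on the rising side, the adaptor Ticam1 (1.27). Of 6 brakes 3 rose and 2 fell, Socs3 (1.53) and Ptpn2 (-0.93) having the smallest p in each direction. No interferon gene reached the filter, and Ifnz had the most reads, 29 over the TSA libraries and 3 over the DMSO libraries. Of 12 lymphocyte markers Cd3e, Cd8a, Nkg7 and Ms4a1 were at 0 in all libraries. The 2 that were tested went opposite ways with TSA, Cd3g up (3.06) and Gzmb down (-1.38). The summed macrophage markers were 586 to 634 normalized counts in TSA and 171 to 224 in DMSO. Of 5 tested macrophage markers 3 rose and 1 fell, and their part in the result was not tested. By the authors' deposited table, 14 of the 40 genes were higher in TSA and 11 lower at an adjusted p below 0.05, a share like the 62.1% of all genes of that table in either direction. The Ifi35 call was lost without the first or second DMSO library or the second or the third TSA library (limma adjusted p 0.0521 to 0.0812).

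Set side by side, the HC11 experiments had the same direction for part of the list. Of the 34 genes that rose with sgTrps1, 11 also rose with TSA, 10 fell, 3 were not called and 10 were below the filter or without a row. Isg15, Usp18, Irf7, Bst2, Igtp, Gbp3, Rsad2 and Cmpk2 were among the 11, and Ifit2, Ifit3, Rtp4, Parp9, Dtx3l, Samd9l, Xaf1 and Ddx58 among the 10. Of the 3 genes that fell with sgTrps1, Parp12 fell with TSA, Gbp2 rose and Herc6 was not called. Over all genes tested 43.6% rose with TSA and 41.6% fell, and the joint count was not made over all genes. The tables were normalized separately, so levels were not compared across them. The calls of each HC11 experiment were also counted by the ISRE letters in the promoter window. With TSA 7 of 10 tested genes with a match rose and 2 fell (median 1.91). Of 13 without a match 4 rose and 7 fell (median -0.19). With sgTrps1 12 of 13 with a match rose (median 2.21), as did 13 of 15 without one (median 1.13). These are counts over a few genes that share libraries. Some genes, here and in the counts side by side above, passed the filter only through the libraries where they were high. Their directions are not separate support. No test was made of the difference, and all genes were not split by these letters, so the counts have no reference.

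In organoids most of the list was lower in both Trps1F/F genotypes than in Cdh1F/F Trps1+/+, on both days. In Cdh1F/F Trps1F/F against Cdh1F/F Trps1+/+ organoids at day 14, 33 of 41 genes fell and 0 rose, against 17.9% of all 15860 genes that fell and 14.5% that rose. At day 28, 32 fell and 0 rose, against 23.4% of all genes that fell and 19.9% that rose. The medians were -0.68 at day 14 and -0.73 at day 28 over the 41 genes, and -0.01 and -0.04 over all genes. In bulk samples such as these, fewer cells of a type and less RNA per cell cannot be told apart. The groups did not overlap for 39 genes with Cdh1F/F Trps1F/F lower (36.8% of all genes) and 2 with it higher (33.2%) at day 14, and for 34 with it lower at day 28 (38.0%). Leaving out any 1 of the libraries of a day ended some calls. At day 14, 13 of the 33 were lost in at least 1 such fit, those of Dhx58, Eif2ak2, Oasl1, Mx1, Mx2, Rsad2, Igtp, Iigp1, Parp12, Parp14, Xaf1, Irf7 and Dtx3l (adjusted p 0.0522 to 0.237). At day 28, 9 of the 32 were, those of Ifih1, Herc6, Irgm1, Parp9, Dtx3l, Mx1, Iigp1, Ifi35 and Parp12 (adjusted p 0.0539 to 0.364).

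All 11 effectors fell at day 14 and 8 at day 28. Ifit1 had 235 and 221 normalized counts in Cdh1F/F Trps1F/F organoids at day 14 and 774 and 631 in Trps1+/+ organoids (log2 fold change -1.61, SE 0.20, limma adjusted p = 6.42e-05). At day 28 it had 139 and 82.0 in Cdh1F/F Trps1F/F and 543 and 504 in Trps1+/+ (log2 fold change -2.28, SE 0.20, limma adjusted p = 2.47e-06). Ifit2 had the largest fall of the list at day 14, with 91.2 and 113 in Cdh1F/F Trps1F/F and 369.6 and 366 in Trps1+/+ (log2 fold change -1.84, SE 0.14, limma adjusted p = 1.10e-06), and fell at day 28 as well (-2.08). Ifit3 fell at day 14 (-1.71) and was not called at day 28 (-0.73). Bst2 stood at 1694 and 1701 in Cdh1F/F Trps1F/F and 2477 and 2654 in Trps1+/+ at day 14 (log2 fold change -0.59, SE 0.13, limma adjusted p = 0.00342), and at 697 and 552 in Cdh1F/F Trps1F/F and 1230.1 and 1348 in Trps1+/+ at day 28 (log2 fold change -1.05, SE 0.13, limma adjusted p = 3.19e-05). Rsad2, which responded most to TSA, fell at day 14 (-0.91) and was not called at day 28 (-0.35), and Samd9l likewise (-0.54 at day 14 and 0.06 at day 28).

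Oas2 showed the largest fall of the list at day 28. It had 94.0 and 56.8 normalized counts in Cdh1F/F Trps1F/F and 445 and 336 in Trps1+/+ organoids at day 28 (log2 fold change -2.39, SE 0.21, limma adjusted p = 2.41e-06), and 435 and 473 in Cdh1F/F Trps1F/F and 1034 and 933 in Trps1+/+ at day 14 (log2 fold change -1.11, SE 0.21, limma adjusted p = 0.00145). The Trps1+/+ organoids were above the Cdh1F/F Trps1F/F organoids on each day. Of the 10 sensors 7 fell at day 14 and 8 at day 28, when Oas3 (-1.97), Oasl1 (-1.65), Oasl2 (-1.52) and Oas1a (-1.14) followed Oas2. Ddx58 was not called on either day (-0.17 at day 14 and -0.06 at day 28). Ifih1 (-0.45 and -0.27) and Dhx58 (-0.45 and -0.94) fell on both days.

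Isg15 stood at 493 and 492 in Cdh1F/F Trps1F/F and 984 and 1031 in Trps1+/+ organoids at day 14 (log2 fold change -1.03, SE 0.11, limma adjusted p = 1.27e-05). At day 28 it stood at 217 and 214 in Cdh1F/F Trps1F/F and 548 and 605 in Trps1+/+ (log2 fold change -1.41, SE 0.11, limma adjusted p = 6.62e-07). Both days thus had every Cdh1F/F Trps1F/F library below every Trps1+/+ library. Usp18 had 259.6 and 240.5 in Cdh1F/F Trps1F/F and 474 and 471 in Trps1+/+ at day 14 (log2 fold change -0.92, SE 0.21, limma adjusted p = 0.00424), and 89.8 and 65.6 in Cdh1F/F Trps1F/F and 212 and 226 in Trps1+/+ at day 28 (log2 fold change -1.50, SE 0.21, limma adjusted p = 8.23e-05). Herc6 fell on both days too (-0.83 and -0.57), so that here modifier, protease and ligase genes moved the same way, and Trim25 was not called on either day.

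All 5 GTPases fell on both days, Gbp3 most (-1.34 at day 14 and -2.00 at day 28). Gbp2 had 298 and 316 normalized counts in Cdh1F/F Trps1F/F and 599 and 577 in Trps1+/+ at day 14 (log2 fold change -0.93, SE 0.14, limma adjusted p = 2.99e-04), and 223 and 178 in Cdh1F/F Trps1F/F and 528 and 478 in Trps1+/+ at day 28 (log2 fold change -1.33, SE 0.14, limma adjusted p = 1.17e-05). The interferon gamma-responsive Igtp (-0.58 and -0.69), Irgm1 (-0.56 and -0.39) and Iigp1 (-0.68 and -0.53) fell by less. Irf7 had 1045 and 989 in Cdh1F/F Trps1F/F and 1697 and 1805 in Trps1+/+ at day 14 (log2 fold change -0.78, SE 0.19, limma adjusted p = 0.00739), and 422 and 301 in Cdh1F/F Trps1F/F and 1289.5 and 1265 in Trps1+/+ at day 28 (log2 fold change -1.84, SE 0.19, limma adjusted p = 8.77e-06). Helz2 and Sp100 were not called on either day, and Adar fell at day 28 (-0.55) but was not called at day 14 (-0.15).

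**Figure D3:**
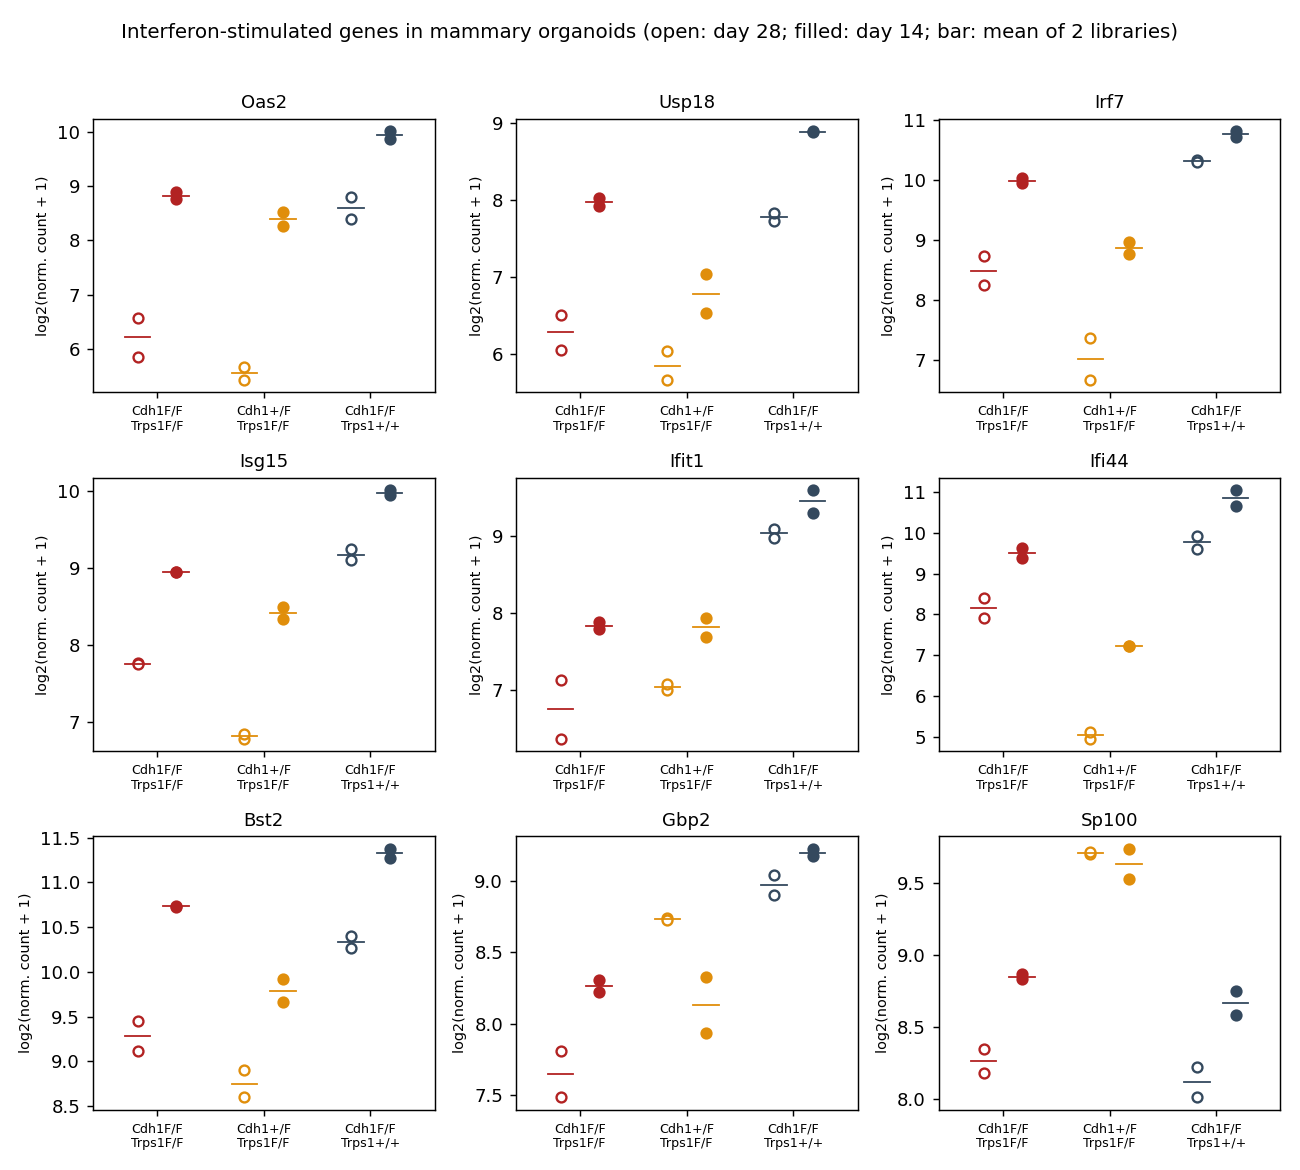
Levels of 9 interferon-stimulated genes in the 12 organoid libraries, as log2(normalized count + 1), by genotype from Cdh1F/F Trps1F/F to Cdh1+/F Trps1F/F to Cdh1F/F Trps1+/+, with each point 1 library, open at day 28 and filled at day 14. For Oas2, Usp18, Irf7, Isg15, Ifit1, Ifi44 and Bst2 the Trps1+/+ points of a day stand above those of both Trps1F/F genotypes, and for Sp100 the Cdh1+/F Trps1F/F points stand highest.

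Cdh1+/F Trps1F/F organoids, set against the same Trps1+/+ libraries, had 37 genes lower and 1 higher at day 14 (17.4% of all genes fell and 18.9% rose) and 36 lower and 3 higher at day 28 (24.7% fell and 28.6% rose). The medians were -1.08 and -1.10 on those days over the 41 genes, and 0.02 and 0.03 over all genes. Ifi44 fell most on both days, with 148 and 148 in Cdh1+/F Trps1F/F and 2117 and 1604 in Trps1+/+ at day 14 (log2 fold change -3.63, SE 0.18, limma adjusted p = 1.44e-08), and 30.0 and 33.8 in Cdh1+/F Trps1F/F and 967 and 778 in Trps1+/+ at day 28 (log2 fold change -4.72, SE 0.18, limma adjusted p = 9.50e-10). All 10 sensors and all 4 ISG15-system genes fell on both days. Among the sensors Oas1a fell most at day 14 (-2.18) and Oas3 at day 28 (-3.74), and Oas2 fell by 1.55 and 3.05 on the log2 scale. Isg15 (-1.56 at day 14 and -2.35 at day 28), Usp18 (-2.10 and -1.93), Ifit1 (-1.63 and -1.99), Bst2 (-1.54 and -1.58), Gbp3 (-1.82 and -2.75) and Irf7 (-1.91 and -3.30) fell on both days. Gbp2 fell at day 14 (-1.07) and was not called at day 28 (-0.24). With 1 library left out 3 of 38 calls at day 14 were lost, those of Ifit2, Trim25 and Helz2 (adjusted p 0.0502 to 0.261), and 2 of 39 at day 28, those of Samd9l and Rsad2 (adjusted p 0.0782 to 0.268).

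A few genes rose in that genotype. Sp100 had 739 and 855 normalized counts in Cdh1+/F Trps1F/F and 430.4 and 384 in Trps1+/+ at day 14 (log2 fold change 0.97, SE 0.12, limma adjusted p = 3.18e-05), and 835 and 843 in Cdh1+/F Trps1F/F and 258 and 298 in Trps1+/+ at day 28 (log2 fold change 1.59, SE 0.12, limma adjusted p = 1.74e-07). Ifit3 rose at day 28, to 101 and 94.3 in Cdh1+/F Trps1F/F, against 23.0 and 34.3 in Trps1+/+ (log2 fold change 1.76, SE 0.36, limma adjusted p = 0.00126). Iigp1 rose at day 28 to 506 and 407 in Cdh1+/F Trps1F/F, against 198 and 235 in Trps1+/+ (log2 fold change 1.07, SE 0.16, limma adjusted p = 1.04e-04). The Trps1+/+ libraries serve as controls of both Trps1F/F genotypes, so the 2 comparisons share them.

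The Trps1F/F genotypes differed from each other within the list. In Cdh1F/F Trps1F/F against Cdh1+/F Trps1F/F organoids 25 genes were higher and 4 lower at day 14 (19.0% and 21.6% of all genes), and 28 higher and 5 lower at day 28 (27.7% and 29.0%). The medians were 0.48 and 0.55 over the 41 genes and 0.01 and 0.02 over all genes. Of the genes higher in Cdh1F/F Trps1F/F, Ifi44 differed most (2.28 at day 14 and 3.12 at day 28), and others were Oas1a (1.54 and 1.64), Rtp4 (1.45 and 1.89), Cmpk2 (1.31 and 1.86) and Irf7 (1.12 and 1.47). Ifit3 (-1.66 and -2.49) and Ifit2 (-1.46 and -1.96), neighbours on chromosome 19, were lower in Cdh1F/F Trps1F/F, as were Sp100 (-0.78 and -1.45) and Iigp1 (-0.53 and -1.60), and Ifit1 was not called on either day (0.02 and -0.29). Isg15 (0.53 and 0.94) and Bst2 (0.94 and 0.53) were higher on both days. Oas2 was called at day 28 (0.66) and not at day 14 (0.44), Usp18 at day 14 (1.19) and not at day 28 (0.43), and Gbp2 at day 28 as lower (-1.09) and not at day 14 (0.14). With 1 library left out 6 of the 29 calls at day 14 were lost in at least 1 fit, those of Dhx58, Samd9l, Igtp, Iigp1, Helz2 and Ifi35 (adjusted p 0.0537 to 0.22). At day 28, 6 of the 33 were, those of Oas2, Mx2, Gbp3, Bst2, Samd9l and Trim25 (adjusted p 0.0505 to 0.213); Oas2 was lost without the first library of either genotype (0.110 and 0.213). At both days each Cdh1+/F library left out ended some calls, as did each Cdh1F/F library of day 14 and the first of day 28. The Oas2 call was also lost with voom (adjusted p = 0.125) and with the spread of those groups alone (0.111).

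Marker genes of other cells moved with the organoid genotypes. The summed level of the macrophage markers at day 14 was 8439.7 to 8728 normalized counts in Cdh1F/F Trps1F/F, 27300.5 to 27633 in Cdh1+/F Trps1F/F and 15650.0 to 15753 in Trps1+/+ organoids. Of 14 tested macrophage markers 11 fell in Cdh1F/F Trps1F/F at day 14 (17.9% of all genes) and 10 at day 28 (23.4%). In Cdh1+/F Trps1F/F 12 rose at day 14 (18.9% of all genes) and 9 at day 28 (28.6%). Interferon-stimulated genes were lower in both of these genotypes. The summed fibroblast markers at day 14 were 52776 to 53101 in Cdh1F/F Trps1F/F, 732496 to 806165 in Cdh1+/F Trps1F/F and 145912 to 146794 in Trps1+/+. The Cdh1+/F Trps1F/F organoids held by far the most fibroblast marker RNA. The epithelial sums were 191810.0 to 196559 in Cdh1F/F Trps1F/F, 107727 to 113554 in Cdh1+/F Trps1F/F and 128686 to 139740.0 in Trps1+/+. At day 28 the macrophage sums lay closer together, at 7012 to 7113 in Cdh1F/F Trps1F/F, 7679 to 8997 in Cdh1+/F Trps1F/F and 7795 to 8580.5 in Trps1+/+. The part of these cell mixtures in the falls was not tested.

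Of 12 receptors and transducers in Cdh1F/F Trps1F/F against Trps1+/+ organoids 6 fell and 2 rose at day 14, and 7 fell and 2 rose at day 28. Of all genes 17.9% fell and 14.5% rose at day 14, and 23.4% fell and 19.9% rose at day 28. Stat2 (-0.47 at day 14 and -0.76 at day 28) and the receptor chains Ifnar2 (-0.48 and -0.51) and Ifngr1 (-0.53 and -0.48) fell on both days, and Ifnlr1, a receptor of lambda interferons, rose on both (0.75 and 0.46). In Cdh1+/F Trps1F/F organoids Irf9 fell by 0.97 at day 14 and by 1.21 at day 28, and Stat2 by 0.58 and 0.75. Of 13 tested genes that induce interferon 4 rose and 3 fell in Cdh1F/F Trps1F/F organoids at day 14, and 4 rose and 5 fell at day 28. Of 6 brakes 1 rose at day 14, and 1 rose and 1 fell at day 28, near or below the shares of all genes. No interferon gene reached the filter, and no more than 3 reads of any of them were found over the 2 libraries of a group.

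More genes of the list fell than rose at day 28 against day 14 in every genotype. In Cdh1F/F Trps1F/F organoids 26 genes fell with time and 1 rose (20.6% and 14.8% of all genes), in Cdh1+/F Trps1F/F organoids 22 fell and 5 rose (20.3% and 20.5%), and in Trps1+/+ organoids 19 fell and 0 rose (14.7% and 11.1%). The medians were -0.56, -0.40 and -0.38 in that order, and -0.03, 0.04 and 0.01 over all genes. Macrophage markers fell with time as well, 10 of 14 tested in Cdh1F/F Trps1F/F, 11 in Cdh1+/F Trps1F/F and 12 in Trps1+/+, as did 5, 5 and 6 of 8 endothelial markers and 8, 3 and 7 of 10 fibroblast markers in that sequence. Of 12 epithelial markers 10 fell in Cdh1+/F Trps1F/F, 1 in Cdh1F/F Trps1F/F and 0 in Trps1+/+. Their part in the falls was not tested. Leaving out 1 library gave between 1 and 4 rises in Cdh1+/F Trps1F/F organoids, 1 without the first library of day 14 and 3 without either of day 28. It gave between 7 and 15 falls in Trps1+/+ organoids, the fewest without the first Trps1+/+ library of day 14 and 10 without the second of day 28. In Cdh1F/F Trps1F/F, Cdh1+/F Trps1F/F and Trps1+/+, values being listed by genotype in this sequence, Oas2 fell in all 3 (-2.62, -2.84 and -1.34), as did Usp18 (-1.69, -0.93 and -1.11), Isg15 (-1.19, -1.60 and -0.81) and Bst2 (-1.45, -1.04 and -0.99). Irf7 fell in both Trps1F/F genotypes (-1.51 and -1.85) and was not called in Trps1+/+ (-0.45), and Ifit1 likewise (-1.09, -0.77 and -0.42). Gbp2 fell in Cdh1F/F Trps1F/F (-0.62), rose in Cdh1+/F Trps1F/F (0.60) and was not called in Trps1+/+ (-0.23). The genes that rose with time were Eif2ak2 (0.44) in Cdh1F/F Trps1F/F, and Mx1 (0.88), Ifit2 (0.63), Gbp2 (0.60), Irgm1 (0.37) and Samd9l (0.28) in Cdh1+/F Trps1F/F. The largest falls of Trps1+/+ organoids were in Ifit3 (-1.58) and Oas2, with Iigp1 (-1.13) leading the GTPases and Xaf1 (-0.62) the regulators and others. Calls lost in at least 1 such fit were 8 of 27 in Cdh1F/F Trps1F/F, those of Trim25, Igtp, Parp14, Ifi27, Rtp4, Gbp3, Ifi35 and Gbp2 (adjusted p 0.0539 to 0.14). In Cdh1+/F Trps1F/F they were 8 of 27, those of Mx1, Mx2, Samd9l, Usp18, Gbp2, Irgm1, Ifit1 and Cmpk2 (adjusted p 0.0503 to 0.254), and without the first library of day 14 Mx1, Samd9l, Gbp2 and Irgm1 of the risen genes were lost. In Trps1+/+ they were 12 of 19, those of Ifih1, Zbp1, Oas1a, Ifit3, Mx2, Samd9l, Trim25, Igtp, Parp14, Helz2, Ifi27 and Xaf1 (adjusted p 0.0522 to 0.275). Each library of those genotypes and days cost some calls, apart from the first Cdh1F/F Trps1F/F library of day 28.

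The difference between the changes over time in Cdh1F/F Trps1F/F and in Trps1+/+ organoids was tested by its interaction term. It passed for 5 genes, 4 negative and 1 positive, against 9.72% and 8.22% of all genes, so the counts are near or below those shares and are not a result about the list. The median was -0.21 over the 41 genes and -0.01 over all genes. Oas2 (log2 fold change -1.28, SE 0.30, limma adjusted p = 0.0139), Irf7 (log2 fold change -1.05, SE 0.27, limma adjusted p = 0.02), Oasl1 (log2 fold change -1.03, SE 0.26, limma adjusted p = 0.0181) and Adar (log2 fold change -0.40, SE 0.10, limma adjusted p = 0.021) had a more negative change with time in Cdh1F/F Trps1F/F organoids. Samd9l had the opposite sign (log2 fold change 0.60, SE 0.14, limma adjusted p = 0.0149). Isg15 (-0.38), Ifit1 (-0.67), Usp18 (-0.58), Gbp2 (-0.40) and Bst2 (-0.46) were not called. These calls rest on single libraries: without each in turn between 0 and 12 genes passed, 0 without the second Cdh1F/F Trps1F/F library of day 14 and 12 without the first of day 28. The count was 2 without the first Cdh1F/F Trps1F/F library of day 14, 2 without the second of day 28, 1 without the first Trps1+/+ library of day 14 and 3 without the second of day 28. All 5 calls were lost in at least 1 of these fits (adjusted p 0.0506 to 0.0827).

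Compared gene by gene with the HC11 guide experiment, which shares no library with the organoids, the direction was opposite for most of the list. Of the 34 genes that rose in sgTrps1 cells, 26 fell in Cdh1F/F Trps1F/F organoids at day 14 and 25 at day 28, and 0 rose. Isg15, Usp18, Irf7, Oas2, Ifit1, Ifi44, Mx1, Mx2 and Bst2 were in each of these sets. The 3 genes that fell with sgTrps1, Herc6, Gbp2 and Parp12, fell in these organoids on both days. Over the whole list 33 of 41 genes fell at day 14 and 32 at day 28. Genes that rose with sgTrps1 thus fell about as often as the list, and the joint count was not made over all genes. By the authors' deposited tables, 34 of the 41 genes were lower in Cdh1F/F Trps1F/F than in Trps1+/+ organoids at day 14 and 28 at day 28, and 0 were higher, at an adjusted p below 0.05, against 29.4% and 31.7% of all genes of those tables in either direction.

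**Figure D4:**
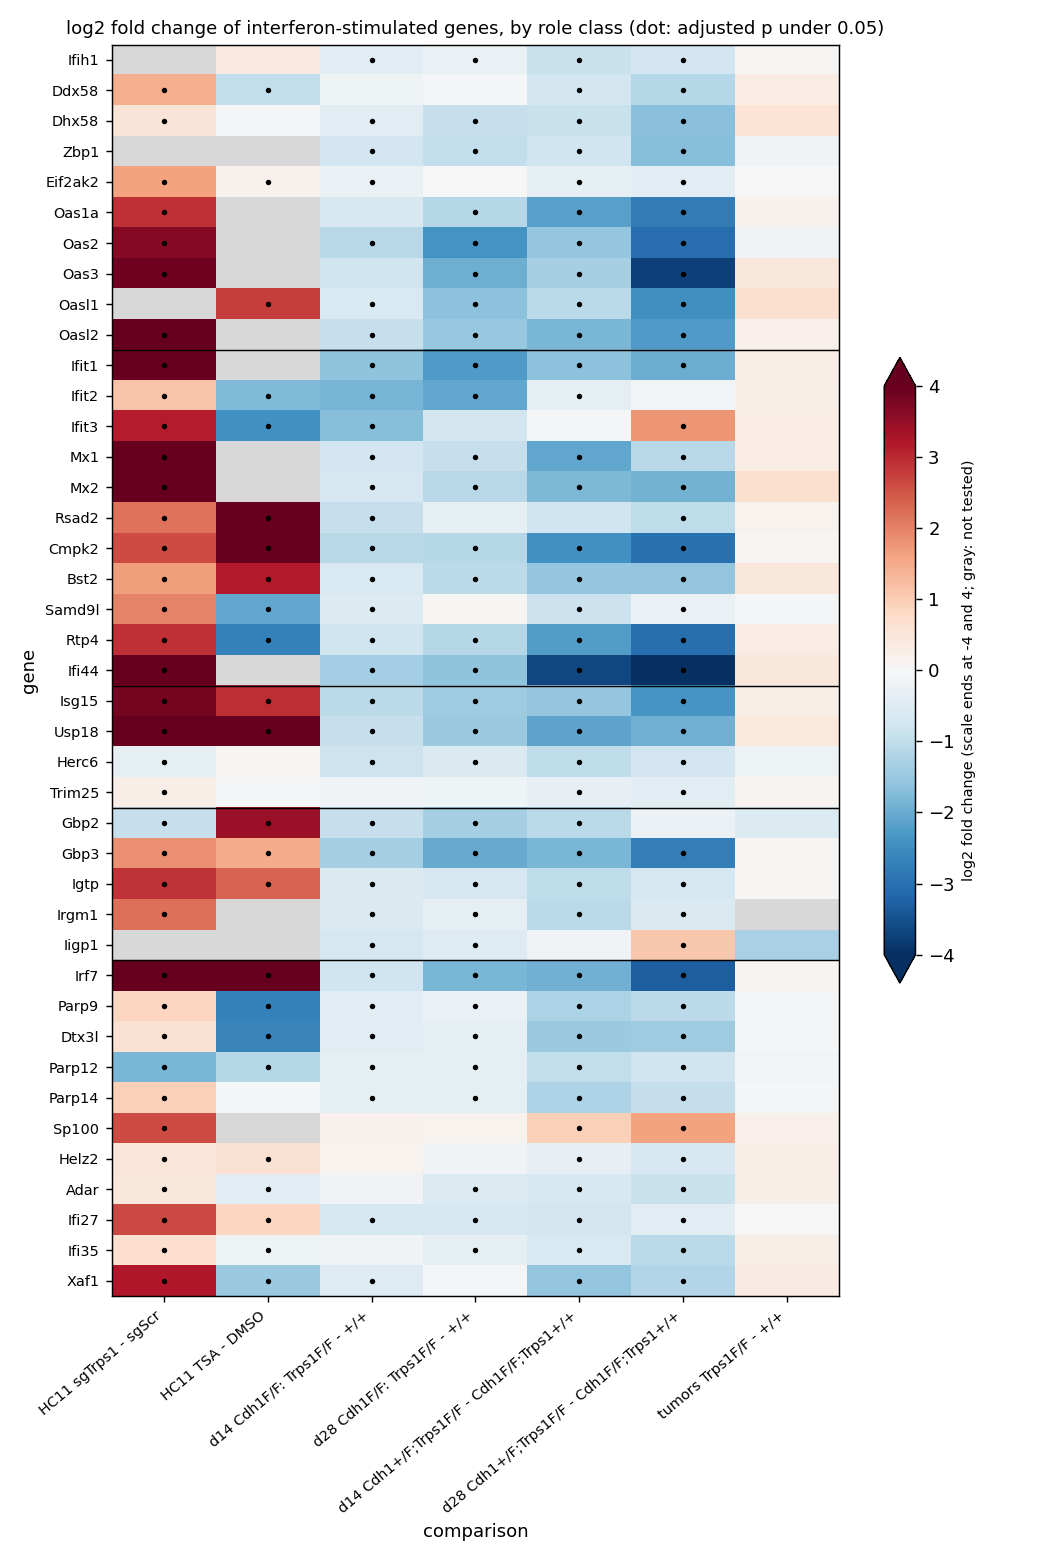
Log2 fold changes of the 41 interferon-stimulated genes (rows, by role) in 7 comparisons (columns), each the first-named group over the second, with grey for genes not tested and a dot for an adjusted p below 0.05. The sgTrps1 column is positive for 34 of 37 tested genes, the TSA column is divided, and the columns of Trps1F/F over Trps1+/+ organoids are mostly negative.

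In tumors no gene of the list passed the test. With tumors averaged within a mouse, 0 of 40 genes were called in 6 Trps1F/F mice against 3 Trps1+/+ mice by limma at an adjusted p below 0.05, and 0 had an unadjusted p below 0.05. Of all 15085 genes tested 0.0% rose and 0.0% fell, so the design called nothing in either direction. The median log2 fold change was 0.19 over the 40 genes and 0.00 over all genes, and between -0.23 and 0.41 over the 40 genes when 1 mouse was left out. In all 40 genes the ranges of the 2 genotypes overlapped.

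Isg15 ran over 8 Trps1F/F tumors with lowest 86.6, median 188, highest 1805 normalized counts, and stood at 98.4, 399 and 282 in the 3 Trps1+/+ tumors (log2 fold change 0.23, SE 0.91). Irf7 ran over the Trps1F/F tumors with lowest 92.2, median 458, highest 5587, and stood at 199, 904 and 750.1 in Trps1+/+ (0.11). Oas2 ran with lowest 29.2, median 176, highest 2227 in Trps1F/F, and stood at 117, 221 and 307 in Trps1+/+ (-0.13). For all 3 the Trps1F/F range enclosed the Trps1+/+ range. Ifit1 (0.26), Usp18 (0.43), Bst2 (0.46) and Gbp2 (-0.54) were not called either, and the lowest and highest values of the list were those of Iigp1 (-1.29) and Mx2 (0.63).

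Single tumors differed across nearly the whole list. Each tumor's median difference from the mean of all 11 tumors over the 40 genes was 2.03 on the log2 scale in the subgroup 3 tumor of mouse 18LCO052, with 39 genes above the mean, and 37 of the 40 genes had their highest level in this tumor. In the subgroup 2 tumor of mouse 17LCO102 it was -1.05, with all 40 below. The subgroup 1 tumor of mouse 18LCO003 stood at 0.91, and 3 tumors of the single mouse 18LCO025 at 0.33, -0.90 and -0.49. The 3 Trps1+/+ tumors lay at -0.54, 0.19 and 0.31, inside the Trps1F/F range. The tumors of 1 mouse thus spanned both sides of the mean.

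**Figure D5:**
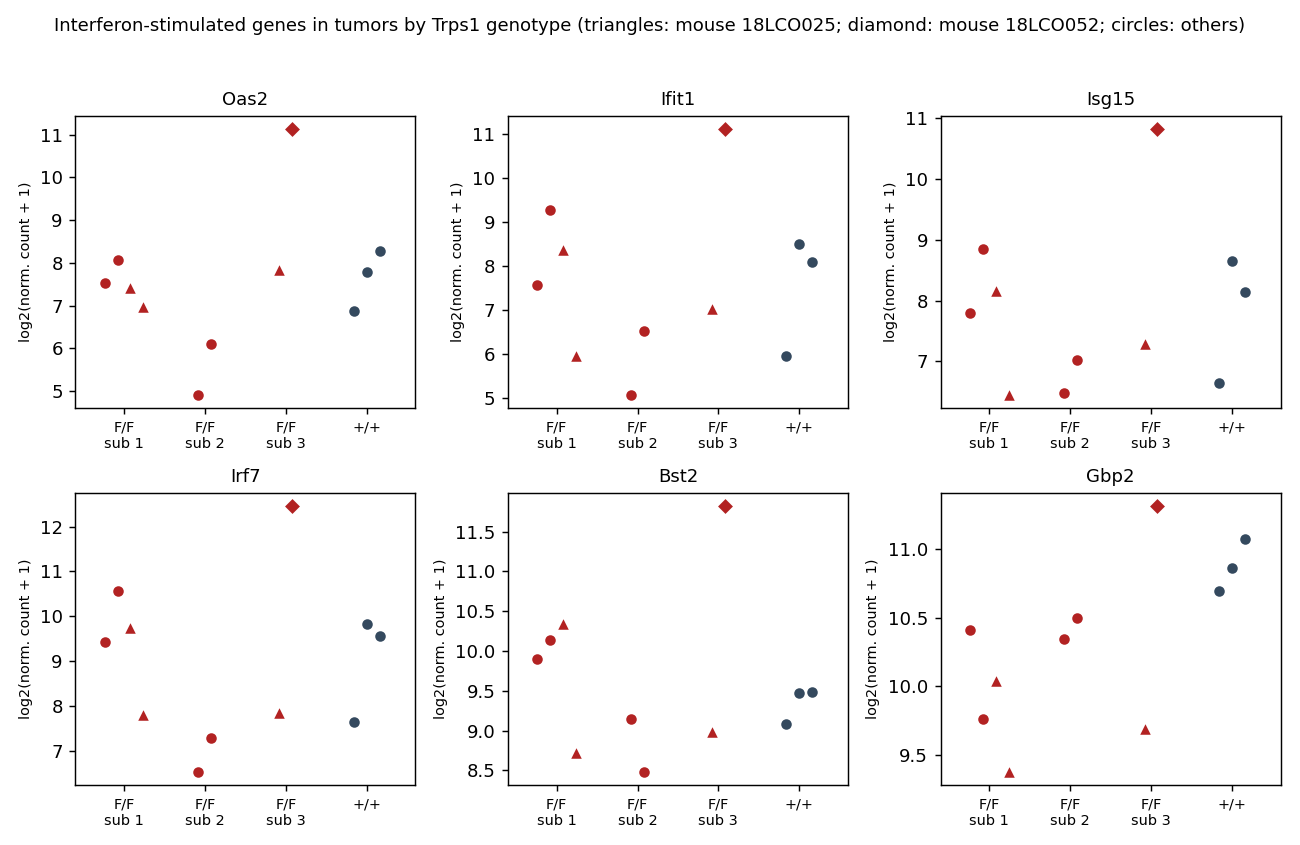
Levels of 6 interferon-stimulated genes in 8 Trps1F/F tumors and 3 Trps1+/+ tumors, as log2(normalized count + 1), with each point 1 tumor, triangles for the 3 tumors of mouse 18LCO025 and a diamond for the tumor of mouse 18LCO052. The diamond is the highest point in all 6 panels, and the other Trps1F/F points mix with the Trps1+/+ points except for Gbp2, where they lie below them.

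The subgroups were each set against the same 3 Trps1+/+ mice, in 1 fit over mice. Mouse 18LCO025 has tumors in subgroups 1 and 3, so it enters with a value in each, which the fit treats as independent. No gene of the list was called by limma in subgroup 1 (3 mice, 15.6% of all 15725 genes called in either direction), subgroup 2 (2 mice, 0.0%) or subgroup 3 (2 mice, 0.00636%), and 1, 5 and 0 had an unadjusted p below 0.05. The medians over the 40 genes were 0.28, -0.85 and 0.74 in subgroups 1 to 3, and 0.01, -0.01 and -0.0035 over all genes. In subgroup 2 all tumors lay below all Trps1+/+ tumors for 22 genes (16.5% of all genes did so), Iigp1 (-3.54, adjusted p = 0.181), Ifi44 (-2.46), Rtp4 (-2.16), Oas2 (-2.14) and Irf7 (-2.09) having the lowest values. In that subgroup Ifit1 stood at -1.71, Usp18 at -1.61, Isg15 at -1.06, Bst2 at -0.53 and Gbp2 at -0.46. Subgroup 1 values were Isg15 0.17, Ifit1 0.48, Irf7 0.58, Oas2 -0.06, Usp18 0.73, Gbp2 -0.92 and Bst2 0.51. Subgroup 3 values were Isg15 1.24, Ifit1 1.56, Irf7 1.14, Oas2 1.82, Usp18 1.62, Gbp2 -0.38 and Bst2 1.06. The subgroup 1 median was 0.01 without mouse 18LCO003, 0.53 without 18LCO025, and 0.07 and 0.43 without the Trps1+/+ mice 18LCO046 and 18LCO114. The subgroup 3 median was 1.85 without mouse 18LCO025, 0.46 without the Trps1+/+ mouse 18LCO046 and -0.40 without mouse 18LCO052, so its sign was set by 1 tumor. By the authors' deposited tables, 0, 1 and 0 genes of the list passed in subgroups 1 to 3, against 25.4%, 4.79% and 0.688% of all genes of those tables.

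The summed macrophage markers ran from 64913 to 264446 normalized counts in Trps1F/F tumors and from 109414 to 147624 in Trps1+/+ tumors, and the epithelial markers from 2065 to 160780.0 in Trps1F/F and 10068 to 40416 in Trps1+/+. The tumor of mouse 18LCO052, highest for the list, had the lowest epithelial sum. Of the interferon genes, Ifng had 11 reads in the tumor of that mouse and 7 over the 3 Trps1+/+ tumors. Their part in the differences between tumors was not tested.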

How the data were processed

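RNA was measured by sequencing of TruSeq libraries, per the labels' protocols, aligned and counted with TopHat and HTSeq on GRCm38, per the submitters' processing notes; those notes give no versions. The deposited tables hold log2 values of normalized count + 1 made by the authors. The deposited comparison tables hold log2 fold changes and adjusted p-values of the authors, copied only where named. Whole reads were recovered from the log2 values for 100% of them within 0.01 reads or a share of 1e-05, which gave depth and the 95% exact counting intervals; intervals and the limit of 3 reads cover counting error only. Rows whose symbol was a date (14 a table) or blank (1 each in the guide and organoid tables, at most 1.31e-05% of reads) were left out. The kit's strandedness is not given, so overlapping and antisense genes, such as Parp9 and Dtx3l, and close paralogs of the Ifit, Oas, Mx and Gbp families are uncertain.

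Genes with a normalized count + 1 of at least 10 in as many libraries or mice as the smallest group holds were fitted with limma 3.58.1 (R 4.3.3; trend on) within each table, with Benjamini-Hochberg adjustment over all kept genes and calls at an adjusted p below 0.05. All 12 organoid libraries share 1 fit, and tumors were averaged per mouse. The code was tested on simulated data. Tables and figures were made in Python 3.11.15. The list members, role classes and marker lists were chosen with earlier results of these data known. Values are given for any member, and in every comparison for the called member with the largest change in each direction and role class. They are also given in every comparison for Isg15, Ifit1, Irf7, Oas2, Usp18, Gbp2 and Bst2. Other pathway genes were named by the smallest p, up to 4 a list. The exceptions, chosen after their values were seen, were Il10rb, Socs3, the TSA falls of Ifnar2 and Ifngr1, and those named for both days. Alternatives were a shift of each library to a common median, no filter, a pseudocount of 5, voom on the recovered reads, replicate numbers as a block, separate fits, tumors as units, and each library or mouse left out. Replicate numbers pair the samples only by number: deviations of same-numbered libraries correlated between -0.08 and 0.00 in the TSA table and at -0.19 in the guide table.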

Additional observations from a re-analysis of the deposited data

Results flagged for a closer look

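Over 40 genes searched by mouse in the 6 Trps1F/F tumor mice, 1 had a mouse far from the others: Herc6, the ligase that attaches ISG15 in mice, stood at 10.43 on the log2 scale in mouse 18LCO052, and the next highest mouse at 9.17. This gap is 0.668 of the range over the 6 mice, above Dixon's critical value for 6 samples, and chance flags about 1 gene in 20. The tumor of that mouse was above the mean of all tumors for 39 of the 40 genes.

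In organoids the change over time differed between Cdh1F/F Trps1F/F and Trps1+/+ by the interaction term for 5 genes, 4 negative and 1 positive, against 9.72% and 8.22% of all genes, and for 0 to 12 genes with 1 library left out. The difference was -1.28 on the log2 scale for Oas2, -1.03 for Oasl1, -1.05 for Irf7, -0.40 for Adar and 0.60 for Samd9l. Oas2 fell to 94.0 and 56.8 normalized counts in Cdh1F/F Trps1F/F organoids at day 28, against 435 and 473 at day 14, and stood at 445 and 336 in Trps1+/+ at day 28, against 1034 and 933 at day 14. Irf7 stood at 422 and 301 in Cdh1F/F Trps1F/F at day 28, against 1045 and 989 at day 14, and at 1289.5 and 1265 in Trps1+/+ at day 28, against 1697 and 1805 at day 14. Samd9l stood at 1756 and 1715 in Cdh1F/F Trps1F/F at day 28, against 1517 and 1392 at day 14, and at 1762 and 1574 in Trps1+/+ at day 28, against 2320.2 and 1915 at day 14.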

How the results depend on the processing

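Across the processing alternatives the number of genes of the list called ran from 31 to 40 for sgTrps1 and 23 to 29 for TSA. It ran from 31 to 35 and 29 to 32 for Cdh1F/F Trps1F/F against Trps1+/+ organoids at days 14 and 28, and was 0 for tumors. For sgTrps1 the 31 came from leaving out chromosomes 10 and 16 and the 40 from no filter, which change how many genes are tested. The other alternatives gave 37. With 1 library left out it ran from 36 to 37 for sgTrps1, 23 to 24 for TSA, and 22 to 27 and 25 to 31 for those organoids. The lone library that remains is then assumed to vary like the others. The fall with time in Trps1+/+ organoids moved most, from 7 to 15 genes with 1 library left out and 19 with all, and the interaction from 0 to 12 genes, 5 with all; the cause was not tested beyond the fewer samples. Of 154 named values under 1524 alternatives, 1484 kept their direction and call, 31 lost the call (29 with 1 library left out), 9 gained one and 0 reversed. The replicate block left 24 genes called for TSA (13 higher and 11 lower) and 37 for sgTrps1 (34 and 3), and so changed no count; numbers crossed between the guide arms, an alternative chosen after seeing the data, gave 37 genes of the list. No paired analysis was possible in organoids because 8 of their 12 columns carry no replicate number, or in tumors, whose mice are not paired. A shift to a common median moved the median of all genes by over 0.1 in tumor subgroup 2 alone, to 0.12 from -0.01. Genes with a few reads, such as Mx1, Sp100 and the interferons in HC11 cells, are limited by depth.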
